A study of Arabidopsis thaliana with 24 samples.

Results

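A group of 220 nuclear genes of Arabidopsis thaliana had less transcript after 1 h of shade in wild-type seedlings that had not met shade before, and more transcript after the same 1 h in seedlings that had been shaded earlier. The group was picked from the wild-type (WT) libraries. Transcript levels were given as TPM, a measure scaled by transcript length and by the total of the library, and log2(TPM + 1) was averaged over the 2 libraries of each condition. A member had to stand at least 0.8 lower in shade than in white light in naive WT, at least 0.8 higher in primed WT, and at a mean of at least 5 TPM in naive white light and in primed shade. Of 33026 genes in the table, 32548 were nuclear, and 14207 of these met both minimum levels. The naive fall was met by 1405 of them, the primed rise by 745, and both by the 220 members. The opposite pattern, by the same limits, was met by 52 genes. The WT values chose the members, so they are given here as a description, and tests are given for the mutant libraries.

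RNA was sequenced from whole seedlings of the wild-type accession Col-0 and of 2 mutant lines, pif7-1 and ref6-1. Seedlings were 4 days old when they entered 8 h of white light (naive) or 8 h of shade (primed), and a 40 h recovery in white light followed for both. Libraries labelled as controls were then taken from white light, and the others after 1 h of a second, triggering shade with red to far-red light at about 0.5. Each of the 12 combinations of 3 genotypes, 2 histories and 2 light conditions had 2 libraries, 24 in all. Each mutant was labelled as 1 allele. Nothing in the labels says that the 2 libraries of a group came from separate cultures. The p-values therefore weigh the spread between these libraries, which may be technical. In whole seedlings, fewer cells of a type and less RNA per cell cannot be told apart. The 8 naive mutant libraries carry a separate run of record numbers, so in a mutant the naive and primed levels are not compared by a test, and each shade response is taken inside 1 run of records.

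Leaves above a plant absorb red light and pass far-red light. The resulting drop in the ratio is sensed by phytochrome B, and bHLH transcription factors of the PIF family, PIF7 among them, then become active and promote elongation of stems and petioles. REF6 is a histone demethylase that removes the repressive mark H3K27me3 and binds DNA through zinc fingers. Elongating plant cells extend a wall of cellulose, pectin and glycoproteins, while peroxidases and dirigent proteins act on wall phenolics, and glucosinolates with their myrosinases form a chemical defence of the cabbage family.

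The PIF7 transcript was at 1.09 to 3.03 TPM in the 8 pif7-1 libraries, against 28.4 to 76.6 TPM in WT. REF6 transcript stood at 6.16 to 10.95 TPM in ref6-1 and 8.13 to 12.87 TPM in WT, ranges that overlap, so the transcript does not check the ref6-1 label. PIL1, an early shade gene, was at 61.2 to 67.9 TPM in shaded WT and 1.13 to 2.46 TPM in WT white light, and ATHB2, another early shade gene, at 148 to 283 TPM and 11.1 to 16.7 TPM. The shade treatment was therefore visible in these libraries. ATXR7, a histone methyltransferase gene, was at 0 to 0.02 TPM in the 4 naive ref6-1 libraries. It was at 7.2 to 8.6 TPM in the 4 primed ones and at 6.83 to 12.86 TPM in WT. The libraries labelled naive ref6-1 and primed ref6-1 therefore differ in more than light history. Whether they come from the same line was not tested. Mitochondrial transcripts summed to 321 to 559 TPM in naive shaded WT, 158 to 407 TPM in naive shaded ref6-1 and 58.9 to 186 TPM in the other groups. Their part in the naive falls was not tested. Each library had 18614 to 20007 genes at 1 TPM or more.

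Of the 220 members, 181 code for proteins and 39 are annotated as RNAs without a protein. These 39 are 31 long noncoding RNAs, 3 antisense RNAs, 3 small nucleolar RNAs, 1 microRNA precursor and 1 other noncoding RNA. Coding genes made up 82.3% of the members and 93.6% of the genes tested. An overlap with another annotated gene was found for 86 members, 39.1%, against 35.1% of the genes tested, and 35 of the 39 noncoding members overlap a gene on the opposite strand. Whether reads were counted by strand is not given in the sources used here, so values of overlapping members may hold reads of both genes. The coding members had a median gene length of 1997 bp against 2365.5 bp for all tested coding genes.

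Some members lay side by side on the chromosomes. Within gaps of at most 20 kb, 40 of the 220 members formed 16 runs, and 4 of the runs held 3 or more. The longest run held 6 neighbours on chromosome 4, AT4G22475 to AT4G22517, inside 13121 bp, 5 of which code for proteins of the lipid-transfer family. Another run held 4 jacalin-type lectin genes on chromosome 3, PBP1, ATMLP-300B, JAL34 and JAL35, inside 19935 bp. Further neighbours were JAL9, JAL10 and AT1G52100, the peroxidase gene PER21 with the aquaporin genes PIP2B and PIP2-3, the ER body genes BGLU18 and TSA1, the storage protein genes VSP2 and VSP1, and the cutin genes CYP86A2 and GPAT8. AT3G28290 and AT3G28300, both named AT14A, had identical values in every library and cannot be told apart by these counts.

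At the edge of the rule, UGD2 had a naive WT difference of -0.80, AT1G07750 a primed WT difference of 0.80, SWEET1 a primed difference of 0.81, and AT1G62480 and sks17 naive differences of -0.81. Just outside were OFUT11 and ANN2, each with a primed difference of 0.7998, AT4G18030 with a naive difference of -0.7958, AT3G20820 with -0.79 and CER26 with a primed difference of 0.79. The genes beside the limit had nearly the same values on both sides of it.

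PIF proteins bind the G-box, CACGTG, and a related E-box, CACATG, and the REF6 zinc fingers are known for a motif of CTCTG followed by C or T, then T, then C or T. Windows of 300 bases, from 250 before to 50 after the annotated gene start, were searched on both strands for the 181 coding members and for 19815 coding genes tested. The G-box was in 15 member promoters, 8.29%, against 9.03% of all. The E-box was in 29, 16% against 13%, and the REF6 motif in 7, 3.87% against 7.37%. The evening element AAATATCT was in 9, 4.97% against 5.92%, the W-box core TTGACN in 90, 49.7% against 50.9%, the TATA box TATAAA in 105, 58% against 51.6%, and the telo-box AAACCCTA in 4, 2.21% against 5.43%. A match here is a run of letters and not a known binding site. The 250 bases before the start are printed for 5 members because their promoters hold a PIF motif and they stand for roles described further on, the root myrosinase TGG4, the lipid-transfer neighbours AT4G22505 and AT4G22513, the sucrose carrier SUC2 and the UDP-glucose enzyme UGP. Sequences were read from the RefSeq genome of TAIR10.1 along the strand of the gene, and capitals mark the motif on whichever strand it lies. TGG4 has the E-box 239 bases before its start (chr1:17491481-17491730, plus strand). AT4G22505 has it 72 bases before (chr4:11853019-11853268, minus strand) and AT4G22513 162 bases before (chr4:11854559-11854808, plus strand). SUC2 has the G-box 42 bases before (chr1:8033157-8033406, minus strand) and UGP 71 bases before (chr3:754162-754411, minus strand).
TGG4: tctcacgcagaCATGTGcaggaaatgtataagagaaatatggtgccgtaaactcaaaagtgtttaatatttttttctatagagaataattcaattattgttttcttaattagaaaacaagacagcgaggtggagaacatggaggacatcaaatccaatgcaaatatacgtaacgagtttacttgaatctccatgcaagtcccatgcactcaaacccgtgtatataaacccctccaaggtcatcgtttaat
AT4G22505: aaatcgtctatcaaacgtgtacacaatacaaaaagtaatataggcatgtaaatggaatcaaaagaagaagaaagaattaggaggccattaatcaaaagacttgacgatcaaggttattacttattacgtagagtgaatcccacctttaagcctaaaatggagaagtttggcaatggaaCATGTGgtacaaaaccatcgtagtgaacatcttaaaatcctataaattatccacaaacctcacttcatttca
AT4G22513: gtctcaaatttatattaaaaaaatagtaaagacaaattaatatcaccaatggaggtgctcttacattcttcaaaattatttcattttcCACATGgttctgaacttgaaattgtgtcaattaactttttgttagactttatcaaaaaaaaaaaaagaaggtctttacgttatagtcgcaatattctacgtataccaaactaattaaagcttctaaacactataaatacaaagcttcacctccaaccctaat
SUC2: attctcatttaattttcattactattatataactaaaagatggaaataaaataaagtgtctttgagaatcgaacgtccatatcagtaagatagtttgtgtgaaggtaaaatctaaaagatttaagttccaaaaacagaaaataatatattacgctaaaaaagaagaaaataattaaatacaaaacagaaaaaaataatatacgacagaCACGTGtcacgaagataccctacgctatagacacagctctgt
UGP: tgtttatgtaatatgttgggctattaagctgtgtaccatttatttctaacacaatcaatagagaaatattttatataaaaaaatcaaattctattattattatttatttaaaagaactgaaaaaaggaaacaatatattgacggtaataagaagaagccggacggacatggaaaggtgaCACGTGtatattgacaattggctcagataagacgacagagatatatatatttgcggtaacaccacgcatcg

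In WT the members' median level was 23.7 and 24.98 TPM in the 2 naive white light libraries and 5.34 and 6.57 TPM in naive shade. It was 9.95 and 9.25 TPM in primed white light and 25.3 and 27.5 TPM in primed shade. The primed white light level thus lay between the naive levels, and the primed shade level was slightly above the naive white light level. By group means, 214 of the 220 members were lower in primed than in naive white light, and 156 were higher in primed shade than in naive white light. All of these orders rest on the libraries that chose the members.

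Of the mutants, pif7-1 departed from this picture in the direction of its primed shade response, and the libraries labelled ref6-1 kept both directions. In pif7-1 the median was 16.6 and 12.6 TPM in naive white light, 10.3 and 7.02 TPM in naive shade, 16.4 and 18.6 TPM in primed white light, and 13.9 and 10.6 TPM in primed shade. In ref6-1 it was 24.3 and 21.2, 10.2 and 7.93, 12.9 and 11.2, and 23.2 and 22.2 TPM in the same order. The pif7-1 medians were lower in shade with either history, and the ref6-1 medians were lower in naive shade and higher in primed shade. In ref6-1 the primed shade libraries lay inside the range of the naive white light libraries, and by group means 107 members were higher and 111 lower in primed shade than in naive white light. The naive and primed ref6-1 libraries also differ in their run of records and in ATXR7. Light history and these differences cannot be told apart in that order.

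**Figure D1:**
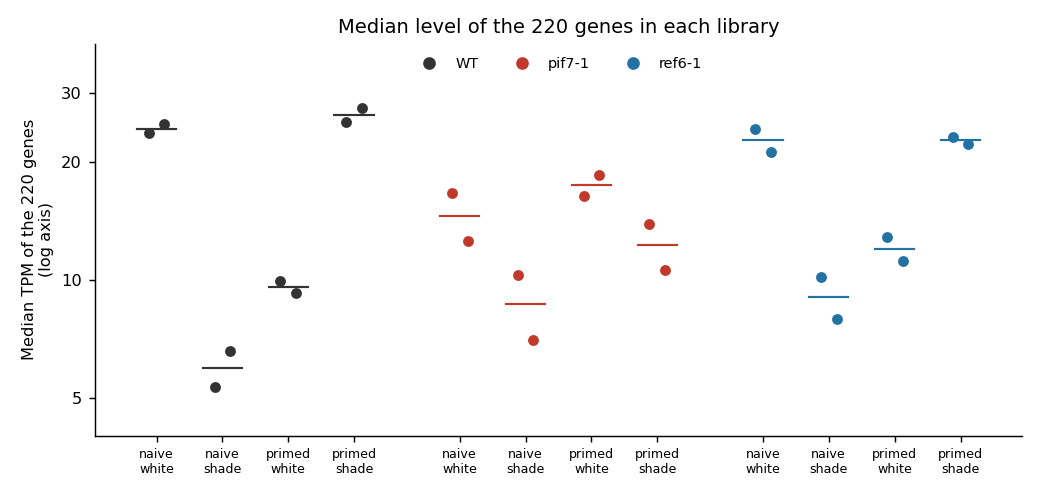
Median TPM of the 220 genes in each of the 24 libraries, on a log axis, with bars at the mean of the 2 libraries of a group. WT runs from 23.7 and 24.98 in naive white light to 5.34 and 6.57 in naive shade and back to 25.3 and 27.5 in primed shade, while the primed pif7-1 shade libraries, at 13.9 and 10.6, sit below their white light libraries at 16.4 and 18.6.

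Tests were run on log2(TPM + 1) with limma across 21473 genes, and a gene was called at a Benjamini-Hochberg adjusted p under 0.05 over all of them. All 220 members were among the genes tested, because the rule's own minimum level lets them through. In naive pif7-1, 67 members, 30.5%, were lower in shade and 2 were higher, against 5.49% of all genes lower and 1.89% higher. The median member difference was -0.65 on the log2 scale, beside -0.08 for all genes. In naive ref6-1, 147 members, 66.8%, were lower and 0 were higher, against 8.43% and 8.96% of all genes, with a median of -1.01 beside 0.00. Of the members that were lower, 60 were lower in both mutants, which is 60 of the 67 in pif7-1 and 60 of the 147 in ref6-1. Over all genes 414, 1.93%, were lower in both, of 1178 lower in pif7-1 and 1810 in ref6-1. In both mutants the share of members called lower was above that of all genes.

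After priming the mutants parted. In primed ref6-1, 102 members, 46.4%, were higher in shade and 2 were lower, against 10.2% and 2.58% of all genes, and the median difference was 0.83 beside 0.08. In primed pif7-1, 1 member was higher and 14 were lower, 0.455% and 6.36% of the members, against 1.59% and 3.42% of all genes. The median was -0.34 beside -0.12. Without replicate 2 of primed shade pif7-1 that median was -0.12 beside -0.15 for all genes, so it no longer stood below them. Without replicate 1 it was -0.52 beside -0.08, so the size of this fall depended on single libraries. By sign alone, 193 members were above 0 in primed ref6-1 and 181 were below 0 in primed pif7-1, 87.7% and 82.3% of the members, against 60% and 66.7% of all genes. Both the fall in naive and the rise in primed shade were called for 81 members in ref6-1 and for 1, PRA1B6, in pif7-1, and over all genes for 441, 2.05%, in ref6-1 and 18, 0.0838%, in pif7-1.

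The difference between the primed and the naive response was tested within each mutant. It was higher for 171 members in ref6-1, 77.7%, and lower for 0, against 14.4% and 8.43% of all genes, with a median of 1.78 beside 0.08. In pif7-1 it was higher for 12 and lower for 3, 5.45% and 1.36%, against 1.48% and 0.801% of all genes, with a median of 0.31 beside -0.04. That count of 12 was 2 when only the compared libraries were fitted, and 3 of the 12 were called in every fit with a library left out. In WT, where the rule fixed it, the median was 2.81. The naive ref6-1 libraries with ATXR7 near 0 enter the ref6-1 difference, and the primed contrasts do not use them, although they share the estimate of the spread. Fitted without the 8 naive mutant libraries, primed ref6-1 had 112 members higher, and primed pif7-1 had 1 higher and 22 lower.

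**Figure D2:**
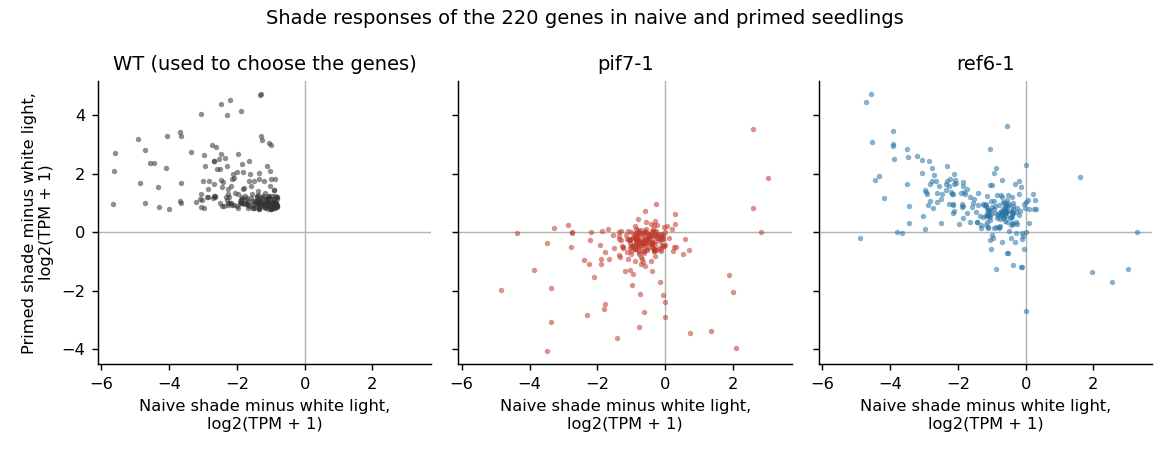
Each of the 220 genes by its naive (x axis) and primed (y axis) difference between shade and white light, in log2(TPM + 1), for the 3 genotypes. The WT panel shows the values that chose the genes; in pif7-1 most points lie below 0 on both axes, with medians of -0.65 and -0.34, and in ref6-1 most lie at the upper left, with medians of -1.01 and 0.83.

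With 2 libraries a group, single libraries weighed on these counts. Without replicate 1 of naive white light pif7-1, 28 members were lower in naive pif7-1 shade, and without replicate 2 of naive shade pif7-1, 24 were. In naive ref6-1, leaving out replicate 1 in white light or replicate 2 in shade left 84 members lower. In primed ref6-1, leaving out replicate 2 in white light or replicate 1 in shade left 52 members higher, and leaving out replicate 2 in shade left 62. In primed pif7-1 the count of members lower was 2 without replicate 1 and 5 without replicate 2 of white light, and 26 without replicate 2 of shade. The count higher there was 0 without either white light replicate or without replicate 1 of shade, and 3 without replicate 2 of shade. For the response difference in pif7-1, the count higher was 5 and 7 without replicates 1 and 2 of naive white light, 5 without replicate 2 of naive shade, 3 without replicate 1 of primed white light, and 6 and 29 without replicates 1 and 2 of primed shade. Called in every such fit were 21 of the 67 members lower in naive pif7-1, 70 of the 147 lower in naive ref6-1, 44 of the 102 higher in primed ref6-1, 1 of the 14 lower in primed pif7-1 and 145 of the 171 with a higher response difference in ref6-1. No called member changed sign in any of these fits.

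The mutants were also compared with each other, in tests added after their values had been seen. The primed shade response was higher in ref6-1 than in pif7-1 for 99 members, 45%, and lower for 0, against 9.27% and 1.05% of all genes, with a median difference of 1.18 beside 0.20. The naive response was lower in ref6-1 for 8 members and higher for 0, against 0.536% and 1.92% of all genes. In primed white light, 55 members were lower in ref6-1 than in pif7-1 and 5 were higher, 25% and 2.27%, against 6.75% and 1.46% of all genes. In primed shade 70 were higher and 0 lower, 31.8% against 8.23% and 4.3% of all genes. Most calls were thus lower in ref6-1 in white light, and all were higher in ref6-1 in shade. These are separate counts, and members called in both light conditions were not counted. The primed shade count rests on the spread shared over all groups, and was 14 when only the compared libraries were fitted. Without replicate 1 of primed white light pif7-1 the response count was 57, without replicate 2 of primed white light ref6-1 it was 53, and without replicates 1 and 2 of primed shade ref6-1 it was 61 and 59. The white light count was 24 and 25 without replicates 1 and 2 of pif7-1 and 18 without replicate 2 of ref6-1. The shade count was 44 without replicate 2 of pif7-1 and 28 and 21 without replicates 1 and 2 of ref6-1. The naive count ranged from 0 to 14 as single libraries were left out, 1 without replicate 2 of naive white light pif7-1, 0 and 5 without replicates 1 and 2 of naive shade pif7-1, 5 and 2 without replicates 1 and 2 of naive white light ref6-1, and 14 and 3 without replicates 1 and 2 of naive shade ref6-1.

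By annotated product, 16 groups of related members were formed, each with 3 members or more, and the number of tested genes of the same family is given with each. In ref6-1 the group medians were negative in naive shade in all 16 and positive in primed shade in 15, the exception being the allene oxide cyclases and vegetative storage proteins. In pif7-1 they were negative in naive shade in 15, the exception being indole glucosinolate synthesis, and negative in primed shade in 15, the exception being the fasciclin-like proteins, at 0.04. The groups were formed after the members were known, so their medians describe these genes only.

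**Figure D3:**
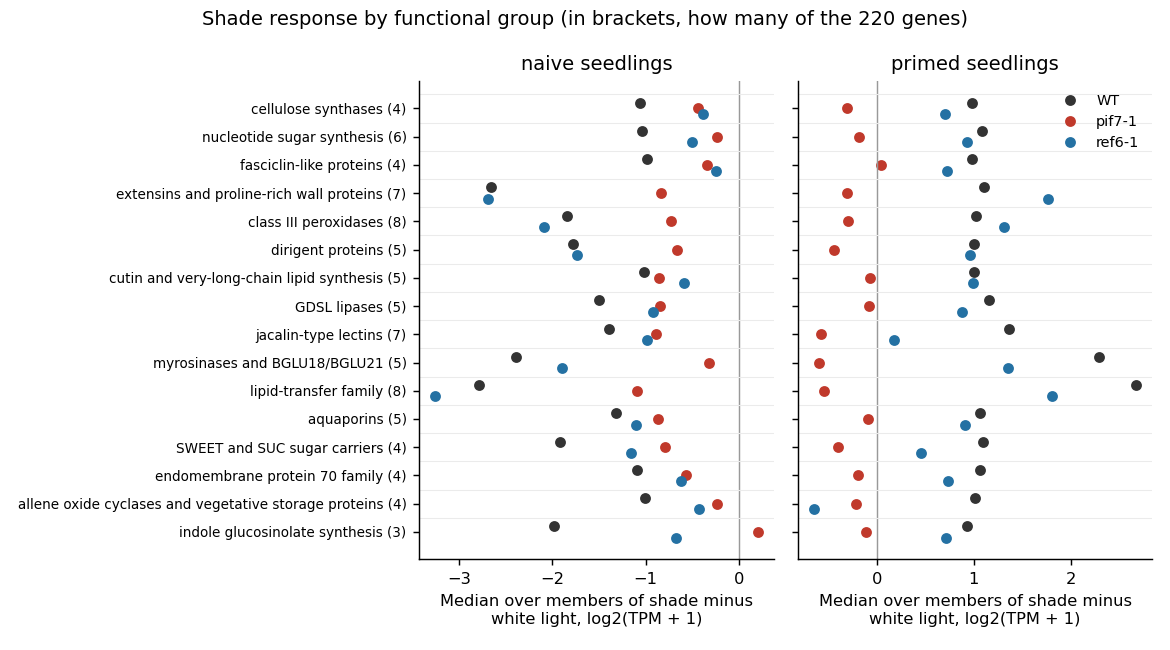
Median difference between shade and white light, in log2(TPM + 1), over the members of each of 16 functional groups, in naive (left) and primed (right) seedlings, by genotype. The primed ref6-1 points lie right of 0 for every group except the allene oxide cyclases and vegetative storage proteins, at -0.64, and the primed pif7-1 points lie between -0.60 and 0.04.

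Wall polysaccharide synthesis was represented by cellulose synthases and by enzymes that make their sugar donors. Of 8 cellulose synthase genes tested, 4 were members, CESA1, CESA3, CESA6, which build the primary wall, and the CESA6-like CESA5. Their summed level was 198 and 207 TPM in primed white light and 403 and 427 TPM in primed shade in WT. In ref6-1 it was 223 and 203 TPM and 353 and 349 TPM, and in pif7-1 302 and 303 TPM and 228 and 280.1 TPM. All 4 rose in primed ref6-1 shade, and none of the 4 passed the test in either direction in primed pif7-1. These were also the only tested genes of the family called there, since over the 8 genes 4 rose and 0 fell in primed ref6-1, and in naive ref6-1 1 rose and 2 fell, none of the 3 a member.

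CESA3 was the member of this family with the lowest adjusted p in primed ref6-1. CESA3 had 86.2 and 98.3 TPM in naive white light, 39.5 and 49.6 TPM in naive shade, 59.4 and 62.3 TPM in primed white light and 133 and 142 TPM in primed shade in WT. For pif7-1 the values were 89.1 and 75.6 TPM in naive white light, 62.2 and 52.9 TPM in naive shade, 93.1 and 94.8 TPM in primed white light and 83.4 and 91.9 TPM in primed shade. For ref6-1 they were 115 and 86.99 TPM in naive white light, 81.5 and 72.2 TPM in naive shade, 69.7 and 63.05 TPM in primed white light and 116 and 113 TPM in primed shade. The primed ref6-1 shade libraries both stood above their white light libraries, and the primed pif7-1 libraries did not overlap. In limma's test CESA3 rose in primed ref6-1 (log2 0.78, SE 0.14, adjusted p = 0.00176), while its primed pif7-1 difference was -0.10 (SE 0.14) with adjusted p = 0.7. CESA1 rose by 0.64 (adjusted p = 0.00981), CESA6 by 0.72 (adjusted p = 0.00732) and CESA5 by 0.69 (adjusted p = 0.0112) in primed ref6-1 on the log2 scale. CESA1 and CESA3 overlap another annotated gene. In naive shade the limma test called CESA3 lower in pif7-1 (log2 -0.51, SE 0.14, adjusted p = 0.034), and none of the other 3 in that contrast. CSI1, which links the cellulose synthase complex to microtubules, had a higher primed response in ref6-1 than in pif7-1 (limma, log2 1.13, SE 0.28, adjusted p = 0.0206).

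Donor sugars for pectin and cellulose came from 6 members of 15 tested, UGP, which makes UDP-glucose, UGD1, UGD2 and UGD3, which oxidise it to UDP-glucuronate, GAE6, which makes UDP-galacturonate, and RHM1, which makes UDP-rhamnose. All 6 rose in primed ref6-1, 5 fell in naive ref6-1, and 0 passed the test in naive pif7-1. UGD2 was at 24.96 and 21.8 TPM in white light and 62.4 and 55.5 TPM in shade in primed ref6-1, and at 41.6 and 36.7 TPM in white light and 46.5 and 35.7 TPM in shade in primed pif7-1. The shade libraries of ref6-1 were both above the white light ones, and limma called the rise (log2 1.30, SE 0.15, adjusted p = 5.71e-05). RHM1 was at 21.4 and 18.6 TPM in white light and 39.05 and 45.98 TPM in shade in primed ref6-1, a rise called by limma (log2 1.05, SE 0.19, adjusted p = 0.00189). UGP was at 42.6 and 46.1 TPM in white light and 64.3 and 59.8 TPM in shade there, a smaller rise (log2 0.48, SE 0.11, adjusted p = 0.00814, limma). Over the whole list of 15, 8 genes rose and 0 fell in primed ref6-1, and 7 fell and 1 rose in naive ref6-1.

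Among wall glycoproteins, 4 of 15 fasciclin-like arabinogalactan proteins and 7 of 42 extensins and proline-rich wall proteins were members. FLA1, FLA8 and FLA16 rose in primed ref6-1 and FLA11 had a difference of 0.51 (SE 0.36) with adjusted p = 0.4 in limma. In naive ref6-1, 2 of the 4 fasciclin-like members fell and 0 rose. Over the 15 fasciclin-like genes 9 rose and 0 fell in primed ref6-1, and 5 fell and 1 rose in naive ref6-1. FLA1 was at 16.4 and 12.8 TPM in white light and 47.95 and 40.1 TPM in shade in primed ref6-1. Its primed pif7-1 libraries were at 39.1 and 39.1 TPM in white light and 53.2 and 40.7 TPM in shade. FLA1 rose in ref6-1 (limma, log2 1.54, SE 0.17, adjusted p = 4.55e-05), and its primed response was higher in ref6-1 than in pif7-1 (limma, log2 1.29, SE 0.24, adjusted p = 0.00674). AGP3, a small arabinogalactan protein, fell in naive ref6-1 (limma, log2 -2.26, SE 0.51, adjusted p = 0.0078).

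PRP4 codes for an abundant proline-rich wall protein, and among the members only PBP1, TGG1 and AT3G22121 had a higher mean level. The WT libraries held PRP4 at 1221 and 1136 TPM in naive white light, 263 and 244 TPM in naive shade, 429 and 347 TPM in primed white light and 789 and 754 TPM in primed shade. It stood at 963 and 1059 TPM in naive white light, 463 and 329 TPM in naive shade, 919 and 1088 TPM in primed white light and 1129 and 743 TPM in primed shade in pif7-1. It stood at 946 and 810.1 TPM in naive white light, 348 and 309.6 TPM in naive shade, 466 and 402 TPM in primed white light and 897 and 756 TPM in primed shade in ref6-1. Shade libraries lay below white light libraries in both naive mutants, and above them in primed ref6-1, with no overlap. PRP4 fell in naive pif7-1 (limma, log2 -1.37, SE 0.19, adjusted p = 0.0006) and in naive ref6-1 (limma, log2 -1.41, SE 0.19, adjusted p = 0.000163), and rose in primed ref6-1 (limma, log2 0.93, SE 0.19, adjusted p = 0.00435). PRP4 overlaps another annotated gene. PRP3, a root hair wall protein, fell in naive ref6-1 (limma, log2 -2.75, SE 0.38, adjusted p = 0.000279) and rose in primed ref6-1 (limma, log2 2.19, SE 0.38, adjusted p = 0.00182). All 7 extensin and proline-rich members fell in naive ref6-1, 1 fell in naive pif7-1, and 5 rose in primed ref6-1. In the whole list of 42, 24 fell and 1 rose in naive ref6-1, and 18 rose and 0 fell in primed ref6-1. AT3G16660 and AT3G16670, neighbours annotated with an Ole e 1 and extensin domain, had naive ref6-1 log2 differences of -2.12 and -2.81, and AT3G28550, an extensin-like gene, of -2.63.

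Phenolic chemistry of the wall was represented by 8 class III peroxidases of 63 tested and 5 dirigent proteins of 19, with pinoresinol reductase PRR1 beside them. Class III peroxidases couple or cleave wall phenolics with hydrogen peroxide, and dirigent proteins steer the coupling of phenoxy radicals. In naive ref6-1, 7 of the 8 peroxidases fell, and in primed ref6-1 5 rose. In naive pif7-1, PER21 and PER70 fell. PER70 was at 24.9 and 19.3 TPM in white light and 6.81 and 5.61 TPM in shade in naive pif7-1, and at 6.03 and 8.13 TPM in white light and 10.2 and 5.80 TPM in shade in primed pif7-1. The naive libraries did not overlap, limma called the fall (log2 -1.67, SE 0.20, adjusted p = 0.000211), and the primed minus naive difference passed too (log2 1.80, SE 0.28, adjusted p = 0.00596). PER29 was the exception in naive ref6-1, with a difference of 0.09 (SE 0.21). AT5G17820 fell in naive ref6-1 (limma, log2 -2.17, SE 0.39, adjusted p = 0.00184) and PER66 as well (limma, log2 -2.14, SE 0.44, adjusted p = 0.0046), and PER2 and PER7 rose in primed ref6-1 by 1.67 and 1.65 on the log2 scale. The 63 genes of the family had 27 lower and 1 higher in naive ref6-1, and 16 higher and 1 lower in primed ref6-1. Of the dirigent genes, 4 fell in naive ref6-1, DIR13 being the exception at -0.40 (SE 0.28), and DIR6 and DIR18 rose in primed ref6-1. DIR18 fell in naive pif7-1 (limma, log2 -1.66, SE 0.28, adjusted p = 0.00251), and DIR11 had a difference of -0.66 (SE 0.32) there with adjusted p = 0.23. Over the 19 dirigent genes 9 fell and 1 rose in naive ref6-1, and 5 rose and 0 fell in primed ref6-1. PRR1 rose in primed ref6-1 (limma, log2 1.72, SE 0.37, adjusted p = 0.00619).

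Surface lipids were represented by 5 cutin and very-long-chain lipid genes of 33 tested, KCS8 and FDH, which code for ketoacyl-CoA synthases, CYP86A2, a fatty acid omega-hydroxylase, and the acyltransferases GPAT8 and ATGPAT3. All 5 rose in primed ref6-1, and 4 of the 5 fell in naive pif7-1 and in naive ref6-1. WT levels of KCS8 were 34.4 and 34.8 TPM in naive white light, 16.1 and 17.2 TPM in naive shade, 10.4 and 15.99 TPM in primed white light and 25.1 and 26.8 TPM in primed shade. Its pif7-1 levels were 41.5 and 34.1 TPM in naive white light, 12.4 and 12.2 TPM in naive shade, 28.2 and 36.00 TPM in primed white light and 35.05 and 24.8 TPM in primed shade. Its ref6-1 levels were 75.9 and 65.9 TPM in naive white light, 38.7 and 31.2 TPM in naive shade, 18.3 and 14.3 TPM in primed white light and 55.8 and 48.7 TPM in primed shade. Both naive mutants were lower in shade without overlap, and primed ref6-1 was higher without overlap. KCS8 fell in naive pif7-1 (limma, log2 -1.54, SE 0.19, adjusted p = 0.000346) and rose in primed ref6-1 (limma, log2 1.62, SE 0.19, adjusted p = 7.39e-05), and its primed response was higher in ref6-1 than in pif7-1 (limma, log2 1.73, SE 0.28, adjusted p = 0.0029). FDH rose in primed ref6-1 (limma, log2 0.67, SE 0.13, adjusted p = 0.0027) and GPAT8 too (limma, log2 0.99, SE 0.12, adjusted p = 7.39e-05). In the whole list of 33, 16 fell and 0 rose in naive pif7-1, and 14 rose and 0 fell in primed ref6-1. The exporter gene ABCG11 and the epidermal gene PDF1 rose in primed ref6-1 by 0.49 and 1.06 on the log2 scale. Of 5 GDSL lipase members among 54 tested, 4 fell in naive pif7-1, 5 in naive ref6-1, and 5 rose in primed ref6-1. AT1G29670 kept its naive pif7-1 and primed ref6-1 calls in every fit with 1 library left out, with a primed ref6-1 rise of 1.29 on the log2 scale. GLL23, AT5G45950 and AT1G33811 rose there by 0.62, 0.90 and 0.81. Over the 54 GDSL lipases 11 fell and 1 rose in naive pif7-1, 19 fell and 2 rose in naive ref6-1, and 13 rose and 1 fell in primed ref6-1.

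Defence proteins of the glucosinolate and lectin systems formed a further part of the group. PBP1 codes for a lectin that binds the beta-glucosidase PYK10 of endoplasmic reticulum bodies, and had the highest mean level of all members. In WT, PBP1 was at 1503 and 1564 TPM in naive white light, 679 and 561 TPM in naive shade, 944 and 695 TPM in primed white light and 1726 and 1698 TPM in primed shade. The pif7-1 libraries had 1377 and 1474 TPM in naive white light, 854 and 691 TPM in naive shade, 1352 and 1419 TPM in primed white light and 1247 and 1148 TPM in primed shade. The ref6-1 libraries had 1238 and 1136 TPM in naive white light, 624 and 612 TPM in naive shade, 1430.03 and 1190.3 TPM in primed white light and 1464 and 1414 TPM in primed shade. Naive shade libraries were below the naive white light ones in both mutants, and the primed ref6-1 libraries overlapped. PBP1 fell in naive pif7-1 (limma, log2 -0.89, SE 0.14, adjusted p = 0.00152) and naive ref6-1 (limma, log2 -0.94, SE 0.14, adjusted p = 0.00042), and its primed ref6-1 difference was 0.14 (SE 0.14) with adjusted p = 0.56. Of the 7 jacalin-type lectin members among 26 tested, 4 fell in naive pif7-1, 6 in naive ref6-1, and 3 rose in primed ref6-1, JAL9, JAL10 and ATMLP-300B. Over the 26 lectin genes 4 rose and 3 fell in primed ref6-1, and 0 rose and 4 fell in primed pif7-1, so the family went both ways in primed ref6-1. JAL35 fell in primed pif7-1 (limma, log2 -0.63, SE 0.17, adjusted p = 0.0459). JAL34 and AT1G52100 had primed ref6-1 differences of -0.11 (SE 0.16) and 0.18 (SE 0.18).

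Myrosinases hydrolyse glucosinolates when tissue is damaged, and TGG4 and TGG5 are their root forms. TGG4 had 11.9 and 2.60 TPM in naive white light, 0 and 0.04 TPM in naive shade, 0.10 and 0 TPM in primed white light and 4.72 and 10.9 TPM in primed shade in WT. For pif7-1 the values were 0.50 and 0.06 TPM in naive white light, 0.04 and 0.09 TPM in naive shade, 2.30 and 1.88 TPM in primed white light and 3.14 and 0 TPM in primed shade. For ref6-1 they were 15.3 and 18.1 TPM in naive white light, 0.39 and 0 TPM in naive shade, 0.03 and 0 TPM in primed white light and 5.87 and 9.11 TPM in primed shade. Among the ref6-1 libraries the naive white light and primed shade libraries were high and the others at 0.39 TPM or less, while the pif7-1 libraries reached at most 3.14 TPM and overlapped with either history. TGG4 fell in naive ref6-1 (limma, log2 -3.90, SE 0.57, adjusted p = 0.000387) and rose in primed ref6-1 (limma, log2 3.04, SE 0.57, adjusted p = 0.00276), and its naive and primed pif7-1 differences were -0.24 (SE 0.57) and -0.60 (SE 0.57). TGG5 followed, with primed ref6-1 shade at 5.37 and 8.34 TPM and primed ref6-1 white light listed at 0 in both libraries. TGG1, the leaf form, fell in both naive mutants, in pif7-1 (limma, log2 -1.002, SE 0.25, adjusted p = 0.0245) and in ref6-1 (limma, log2 -1.11, SE 0.25, adjusted p = 0.00833). BGLU18, a beta-glucosidase of inducible ER bodies, had WT libraries at 29.2 and 31.98 TPM in naive white light, 11.9 and 15.6 TPM in naive shade, 26.9 and 37.01 TPM in primed white light and 163 and 152 TPM in primed shade. The ref6-1 values of BGLU18 were 37.8 and 34.6 TPM in naive white light, 13.2 and 14.6 TPM in naive shade, 67.6 and 53.9 TPM in primed white light and 62.9 and 71.7 TPM in primed shade. It fell in naive ref6-1 (limma, log2 -1.32, SE 0.27, adjusted p = 0.00407), and its primed ref6-1 difference was 0.15 (SE 0.27) with adjusted p = 0.77. BGLU21, a scopolin glucosidase of roots, fell in naive ref6-1 (limma, log2 -1.90, SE 0.47, adjusted p = 0.0135). Of the 5 genes in this group, 5 fell in naive ref6-1 and 2, TGG4 and TGG5, rose in primed ref6-1. Over the 8 tested genes of the list 7 fell in naive ref6-1 and 3 rose in primed ref6-1. CYP79B3, CYP83B1 and SOT16 of indole glucosinolate synthesis had primed ref6-1 differences of 0.21 (SE 0.19), 0.72 (SE 0.27) and 0.80 (SE 0.26), none of them called. Over the 9 tested genes of that synthesis list 1 rose in primed ref6-1.

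Allene oxide cyclases make a jasmonate precursor, and vegetative storage proteins are acid phosphatases that jasmonate induces. None of AOC1, AOC4, VSP1 and VSP2 was called higher in primed ref6-1. The WT libraries held VSP1 at 5.36 and 8.75 TPM in naive white light, 2.51 and 3.22 TPM in naive shade, 12.2 and 9.98 TPM in primed white light and 21.6 and 20.8 TPM in primed shade. It stood at 4.59 and 2.78 TPM in naive white light, 3.46 and 4.56 TPM in naive shade, 5.44 and 3.65 TPM in primed white light and 5.90 and 2.35 TPM in primed shade in pif7-1. It stood at 10.14 and 8.04 TPM in naive white light, 8.70 and 7.75 TPM in naive shade, 28.6 and 23.1 TPM in primed white light and 10.9 and 10.5 TPM in primed shade in ref6-1. Primed ref6-1 stood lower in shade than in white light without overlap, where WT stood higher. VSP1 (limma, log2 -1.19, SE 0.29, adjusted p = 0.0141) and AOC1 (limma, log2 -0.71, SE 0.19, adjusted p = 0.0198) fell there, and both lost the call in at least 1 fit with a library left out. VSP2 had a primed ref6-1 difference of -0.58 (SE 0.58) and AOC4 of 0.71 (SE 0.24). VSP1 and AOC1 were the 2 members called lower in primed ref6-1, and the 2 called among the 6 tested genes of the cyclase and storage protein families.

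Of 57 lipid-transfer family genes tested, 8 were members, and 5 of these lie in the run on chromosome 4. Their summed level was 321 and 185 TPM in naive white light, 14.7 and 22.7 TPM in naive shade, 58.98 and 35.6 TPM in primed white light and 256 and 263 TPM in primed shade in WT. In ref6-1 it was 315 and 301, 42.3 and 18.03, 112 and 60.2 and 279.8 and 284 TPM in that order, and in pif7-1 126 and 95.1, 34.4 and 23.2, 136 and 142 and 211 and 57.6 TPM. The 2 primed pif7-1 shade libraries lie far apart. All 8 fell in naive ref6-1, 3 fell in naive pif7-1, and 3 rose in primed ref6-1. Over the 57, 27 fell and 2 rose in naive ref6-1, and 7 rose and 3 fell in primed ref6-1.

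AT4G22505 belongs to this run, and its promoter is among those printed. WT levels of AT4G22505 were 29.9 and 11.2 TPM in naive white light, 1.78 and 3.40 TPM in naive shade, 0.33 and 0.96 TPM in primed white light and 37.5 and 29.4 TPM in primed shade. Its pif7-1 levels were 7.26 and 2.32 TPM in naive white light, 0.44 and 2.15 TPM in naive shade, 9.65 and 8.74 TPM in primed white light and 28.6 and 2.68 TPM in primed shade. Its ref6-1 levels were 46.9 and 33.7 TPM in naive white light, 2.23 and 1.32 TPM in naive shade, 2.48 and 1.83 TPM in primed white light and 31.3 and 36.8 TPM in primed shade. In naive ref6-1 the shade libraries were lower without overlap, and in primed ref6-1 the shade libraries were higher without overlap, while the primed pif7-1 shade libraries lie on either side of white light. AT4G22505 fell in naive ref6-1 (limma, log2 -3.90, SE 0.70, adjusted p = 0.002) and rose in primed ref6-1 (limma, log2 3.48, SE 0.70, adjusted p = 0.00446), and its primed response was higher in ref6-1 than in pif7-1 (limma, log2 3.44, SE 0.99, adjusted p = 0.0391). AT4G22513 was at 19.6 and 7.13 TPM in white light and 46.7 and 48.9 TPM in shade in primed ref6-1 (limma, log2 1.91, SE 0.49, adjusted p = 0.0173). AT4G22490 and AT4G22517 fell in naive pif7-1 (limma, log2 -2.19, SE 0.40, adjusted p = 0.00422 and log2 -2.76, SE 0.59, adjusted p = 0.0106). AT4G22485 was listed at 0 in both naive shade libraries of every genotype, and at 25.5 and 21.1 TPM in primed ref6-1 shade against 0.13 and 0.05 TPM in white light. AT4G22475, AT4G22485, AT4G22505, AT4G22513 and AT4G22517 overlap other annotated genes, so reads of neighbours may be split between them. ML3, which codes for a lipid recognition protein and is among the 10 members with the highest mean level, fell in naive pif7-1 (limma, log2 -0.90, SE 0.22, adjusted p = 0.0201) and naive ref6-1 (limma, log2 -1.16, SE 0.22, adjusted p = 0.00249), with a primed ref6-1 difference of 0.54 (SE 0.22). AT3G26450, of a polyketide cyclase and lipid transport family, is also among those 10, overlaps another annotated gene and fell in naive pif7-1 (limma, log2 -0.57, SE 0.16, adjusted p = 0.0441). AT5G46900, a further lipid-transfer gene, fell in naive ref6-1 (limma, log2 -2.24, SE 0.65, adjusted p = 0.0273).

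**Figure D4:**
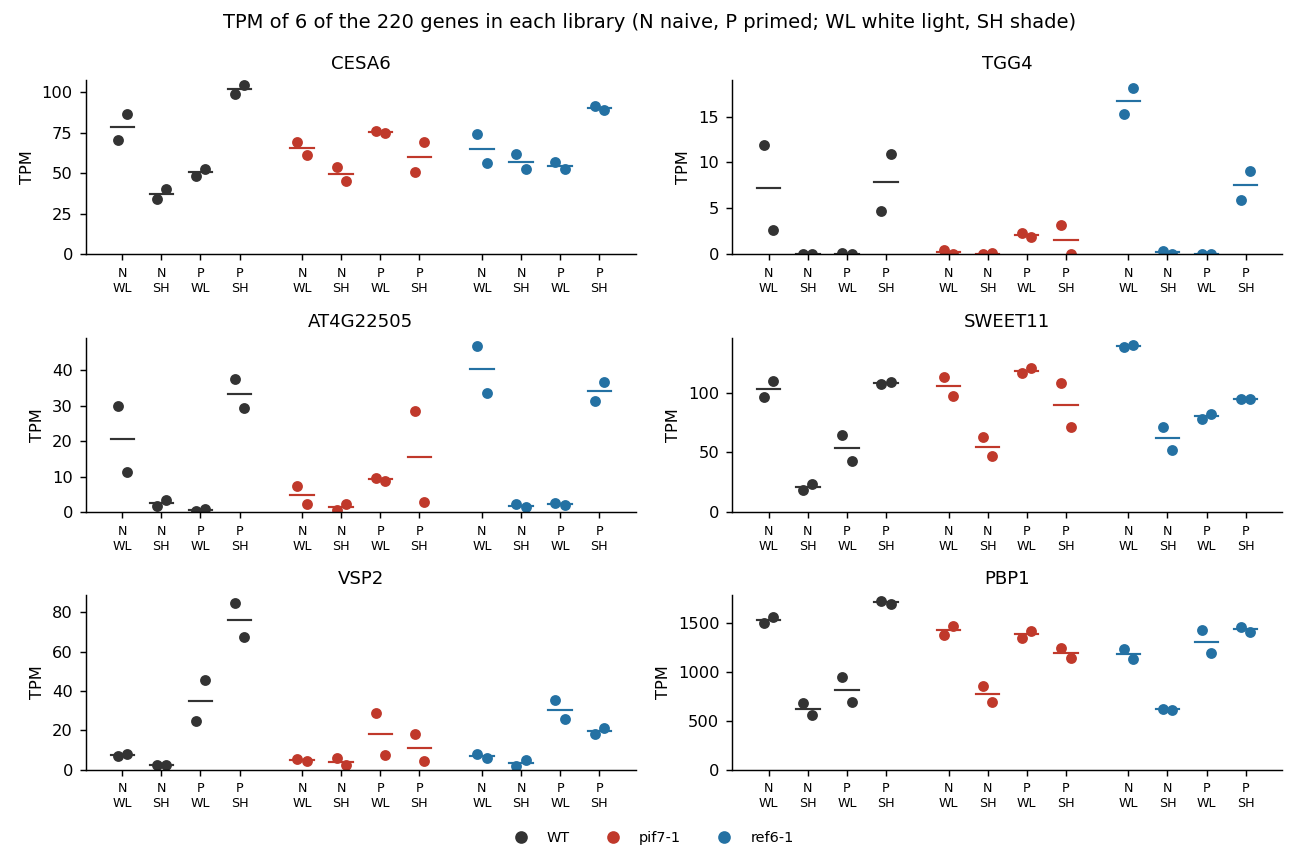
TPM in each of the 24 libraries for 6 members of different roles, CESA6, TGG4, AT4G22505, SWEET11, VSP2 and PBP1, on linear axes from 0, with bars at the mean of the 2 libraries. In WT every panel falls in naive and rises in primed shade, which is how the genes were chosen; in primed ref6-1 CESA6, TGG4 and AT4G22505 stand higher in shade and VSP2 does not.

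Water and solute carriers were represented by 5 of 21 aquaporins, 4 of 10 sugar carriers and single mineral transporters. TIP1-1, a tonoplast aquaporin, was at 275 and 225 TPM in white light and 443 and 494 TPM in shade in primed ref6-1. It rose there (limma, log2 0.91, SE 0.14, adjusted p = 0.000899), and was the 1 aquaporin among the members that did. All 5 aquaporin members fell in naive ref6-1, and PIP2B also in naive pif7-1 (limma, log2 -0.87, SE 0.19, adjusted p = 0.012). PIP2-3, TIP2-3 and PIP2-4 had primed ref6-1 differences of 0.14 (SE 0.18), 1.35 (SE 0.58) and 0.97 (SE 0.48). Over 21 aquaporins, 10 fell and 0 rose in naive pif7-1, 16 fell and 2 rose in naive ref6-1, and 4 rose and 0 fell in primed ref6-1. SWEET11 and SWEET12 release sucrose toward the phloem, which SUC2 loads. In WT, SWEET11 was at 96.98 and 110.1 TPM in naive white light, 18.2 and 23.8 TPM in naive shade, 65.1 and 43.2 TPM in primed white light and 107 and 109 TPM in primed shade. The pif7-1 libraries had 114 and 97.7 TPM in naive white light, 62.99 and 46.7 TPM in naive shade, 117 and 121 TPM in primed white light and 109 and 71.2 TPM in primed shade. The ref6-1 libraries had 139 and 141 TPM in naive white light, 71.5 and 52.4 TPM in naive shade, 78.6 and 81.99 TPM in primed white light and 95.1 and 95.1 TPM in primed shade. The naive shade libraries were lower in both mutants without overlap, and neither primed difference passed the test. SWEET11 fell in naive pif7-1 (limma, log2 -0.95, SE 0.21, adjusted p = 0.0131) and naive ref6-1 (limma, log2 -1.18, SE 0.21, adjusted p = 0.00194), with a primed ref6-1 difference of 0.24 (SE 0.21). SWEET12 fell in both naive mutants, SUC2 fell in naive ref6-1 (limma, log2 -1.14, SE 0.21, adjusted p = 0.00252), and SWEET1, a glucose carrier, rose in primed ref6-1 (limma, log2 0.84, SE 0.20, adjusted p = 0.0133). Over the 10 tested carriers of the SWEET and SUC families 1 rose and 2 fell in primed ref6-1, and 5 fell and 0 rose in naive ref6-1. The nitrate transceptor NPF6.3 rose in primed ref6-1 (limma, log2 0.85, SE 0.19, adjusted p = 0.00932), and the sulfate carrier SULTR2;1 fell in naive ref6-1 (limma, log2 -1.101, SE 0.25, adjusted p = 0.00866). IRT1, the iron uptake carrier, fell in naive ref6-1 (limma, log2 -1.84, SE 0.38, adjusted p = 0.00436) and had a primed ref6-1 difference of 0.89 (SE 0.38).

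Membrane traffic and protein folding genes are described next. The 4 members of the endomembrane protein 70 family, TMN2, TMN8, TMN12 and AT5G25100, of 10 tested, all fell in naive ref6-1 and rose in primed ref6-1, and 3 fell in naive pif7-1. Over the 10 genes 7 rose and 0 fell in primed ref6-1. HSP81-2 codes for a member of the HSP90 chaperone family. HSP81-2 had 77.2 and 85.05 TPM in naive white light, 17.3 and 27.1 TPM in naive shade, 35.2 and 48.5 TPM in primed white light and 202 and 228 TPM in primed shade in WT. For pif7-1 the values were 51.6 and 43.8 TPM in naive white light, 48.1 and 36.2 TPM in naive shade, 55.5 and 54.3 TPM in primed white light and 31.7 and 43.4 TPM in primed shade. For ref6-1 they were 67.3 and 51.05 TPM in naive white light, 71.01 and 37.2 TPM in naive shade, 37.7 and 28.99 TPM in primed white light and 113 and 114 TPM in primed shade. In primed ref6-1 the shade libraries were higher without overlap, and in primed pif7-1 they were lower than white light. HSP81-2 rose in primed ref6-1 (limma, log2 1.75, SE 0.27, adjusted p = 0.000711) with a naive ref6-1 difference of -0.19 (SE 0.27). Hsp70-15 and HSP60-2, chaperones of other families, rose in primed ref6-1 by 1.02 and 1.09 on the log2 scale. XTH14, a xyloglucan-modifying enzyme of roots, and the xylem peptidase genes XCP1 and XCP2 fell in naive ref6-1 by 2.12, 1.79 and 1.72 and rose in primed ref6-1 by 1.64, 1.30 and 1.48. COR413PM1, a cold-induced membrane protein, fell in naive pif7-1 (limma, log2 -1.35, SE 0.19, adjusted p = 0.000798). GRP23, a glycine-rich protein, was called in naive pif7-1, naive ref6-1, primed pif7-1 and primed ref6-1, where it had -0.72, -0.82, -0.52 and 0.63.

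TCP9 and TBL26 had the reverse responses in pif7-1, and other members with called pif7-1 changes are described after them. TCP9 codes for a transcription factor of the TCP family and overlaps another annotated gene. The WT libraries held TCP9 at 23.1 and 24.4 TPM in naive white light, 10.2 and 10.8 TPM in naive shade, 8.20 and 13.3 TPM in primed white light and 23.03 and 24.9 TPM in primed shade. It stood at 8.52 and 3.53 TPM in naive white light, 14.8 and 16.6 TPM in naive shade, 12.04 and 16.96 TPM in primed white light and 0 and 1.11 TPM in primed shade in pif7-1. It stood at 13.9 and 13.8 TPM in naive white light, 10.5 and 9.96 TPM in naive shade, 10.7 and 6.56 TPM in primed white light and 19.6 and 21.7 TPM in primed shade in ref6-1. In naive pif7-1 shade stood above white light, and in primed pif7-1 below it, without overlap. TCP9 rose in naive pif7-1 (limma, log2 1.34, SE 0.34, adjusted p = 0.0251) and fell in primed pif7-1 (limma, log2 -3.40, SE 0.34, adjusted p = 3.98e-05), and it was the 1 member whose primed pif7-1 fall was called in every fit with a library left out. TBL26, a likely wall acetyltransferase, did the same, from 5.80 and 6.19 TPM in white light and 12.3 and 8.72 TPM in shade in naive pif7-1 (limma, log2 0.70, SE 0.14, adjusted p = 0.00781) to 8.06 and 6.29 TPM in white light and 4.47 and 4.17 TPM in shade in primed pif7-1 (limma, log2 -0.61, SE 0.14, adjusted p = 0.0248). These 2 were the members called higher in naive pif7-1. Neither naive rise was called in every fit with a library left out, since TCP9 was called in 1 of 4 and TBL26 in 2 of 4, and the TBL26 fall in primed pif7-1 in 2 of 4. AVT3C, an amino acid transporter, was at 24.5 and 30.2 TPM in white light and 5.65 and 0 TPM in shade in primed pif7-1 and at 4.16 and 7.11 TPM in white light and 45.96 and 45.1 TPM in shade in primed ref6-1. It fell in the former (limma, log2 -3.45, SE 0.63, adjusted p = 0.00633) and rose in the latter (limma, log2 2.85, SE 0.63, adjusted p = 0.00792). AVT3C also overlaps another gene. CYP26-2, a cyclophilin, fell in primed pif7-1 (limma, log2 -3.62, SE 0.69, adjusted p = 0.00822) and AT3G02910, of an avirulence-induced family, too (limma, log2 -4.08, SE 0.79, adjusted p = 0.00876). AT3G02910 was also called lower in naive pif7-1. AT2G44130, of a kelch repeat family, was at 11.9 and 8.51 TPM in naive white light pif7-1 and listed at 0 in both naive shade pif7-1 libraries, and it stood at 10.03 and 12.4 TPM in white light and 8.84 and 8.00 TPM in shade in primed pif7-1. This gene overlaps another and was called in the naive pif7-1 test and in that of the response difference. PRA1B6, a prenylated Rab acceptor, was at 16.1 and 17.8 TPM in white light and 33.97 and 24.4 TPM in shade in primed pif7-1 and was the 1 member that rose there (limma, log2 0.73, SE 0.16, adjusted p = 0.02).

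Among the 39 noncoding members were 7 called lower in naive pif7-1, 14 lower in naive ref6-1 and 6 called higher in primed ref6-1. The 132 coding members that overlap no other gene had 38, 99 and 68, and the 49 coding members that overlap one had 22, 34 and 28. In the same order, 30.5%, 66.8% and 46.4% of the 220 members were called, and 5.49%, 8.43% and 10.2% of all genes. AT3G22121, a long noncoding RNA that overlaps CWLP, a wall linker protein gene, was the most abundant of them. WT levels of AT3G22121 were 1061 and 1144 TPM in naive white light, 104 and 74.3 TPM in naive shade, 623 and 759.5 TPM in primed white light and 1329 and 1426 TPM in primed shade. Its pif7-1 levels were 1181 and 928 TPM in naive white light, 244 and 164 TPM in naive shade, 1337 and 1513 TPM in primed white light and 869.7 and 636 TPM in primed shade. Its ref6-1 levels were 2143 and 1714 TPM in naive white light, 258 and 236 TPM in naive shade, 1171 and 1306 TPM in primed white light and 1285 and 1365 TPM in primed shade. Naive shade libraries were far below white light in all 3 genotypes. AT3G22121 fell in naive pif7-1 (limma, log2 -2.38, SE 0.20, adjusted p = 1.01e-05), naive ref6-1 (limma, log2 -2.95, SE 0.20, adjusted p = 1.97e-07) and primed pif7-1 (limma, log2 -0.93, SE 0.20, adjusted p = 0.0159). AT3G05905 fell in both naive mutants and had a higher primed than naive response in pif7-1 (limma, log2 2.71, SE 0.32, adjusted p = 0.000701). AT2G04755 was at 13.2 and 5.67 TPM in naive white light pif7-1 and listed at 0 in both naive shade libraries of each genotype. AT3G09275 fell in naive pif7-1 (limma, log2 -4.37, SE 1.096, adjusted p = 0.0246) and naive ref6-1 (limma, log2 -4.89, SE 1.096, adjusted p = 0.00775), and AT4G08795 in naive pif7-1 (limma, log2 -3.86, SE 0.78, adjusted p = 0.00717). AT5G00880 fell in primed pif7-1 (limma, log2 -2.84, SE 0.78, adjusted p = 0.0485), from 19.1 and 21.8 TPM in white light to 0 and 7.97 TPM in shade. Several of the largest WT differences belong to members with libraries at or near 0. AT2G08525 ran in WT at 109 and 88.7 TPM in naive white light, 0 and 3.18 TPM in naive shade, 48.6 and 4.17 TPM in primed white light and 124 and 87.9 TPM in primed shade. AT2G08420 stood in WT at 81.1 and 29.1 TPM in naive white light, 0 and 0 TPM in naive shade, 0 and 0 TPM in primed white light and 17.2 and 0 TPM in primed shade. AT5G04238, of unknown function, stood in WT at 14.6 and 57.05 TPM in naive white light, 0 and 0 TPM in naive shade, 0 and 10.4 TPM in primed white light and 34.3 and 26.6 TPM in primed shade. None of the 3 passed the primed ref6-1 test. AT4G06665 and AT3G49668, 2 further noncoding members with large WT differences, were not called in the primed test of either mutant. AT1G23052 was listed at 0 in both libraries of 6 of the 12 groups, and stood at 23.8 and 26.96 TPM in primed ref6-1 shade. AT5G03805 was at 0 and 2.64 TPM in white light and 15.8 and 14.6 TPM in shade in primed ref6-1 (limma, log2 3.08, SE 0.75, adjusted p = 0.0129).

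Lists of whole pathways were counted beside the members, all of them drawn up with earlier results of these data known. None of 15 early shade genes was a member, and in shade they were mostly higher, 13 higher and 0 lower in naive ref6-1, 11 higher and 1 lower in primed ref6-1, 6 higher and 0 lower in naive pif7-1 and 9 higher and 0 lower in primed pif7-1. The lists do not hold every gene of a family. No member was among the listed 22 expansins, 59 pectin enzymes, 15 lignin genes, 3 secondary wall cellulose synthases, 11 flavonoid genes, 7 salicylate genes, 51 replication and histone genes, 7 ribosomal protein genes or 47 photosynthesis genes. Some listed genes met both response limits in WT and missed the minimum level only. CESA7 had naive and primed WT differences of -0.97 and 0.94, CESA8 of -1.20 and 1.05, and EXPA18 of -1.61 and 0.91. Of the lignin genes, 11 fell and 0 rose in naive ref6-1, and 3 rose and 1 fell in primed ref6-1. The members EXLB1, an expansin-like gene, CAD9, a cinnamyl alcohol dehydrogenase gene, and AT1G04680, of the pectin lyase-like family, are outside these lists, and rose in primed ref6-1 by 1.39, 0.89 and 1.28 on the log2 scale. Of the pectin enzymes, 21 fell and 2 rose in naive ref6-1, and 14 rose and 0 fell in primed ref6-1. Of the expansins, 3 rose and 3 fell in naive ref6-1 and 7 rose and 0 fell in primed ref6-1. XTH14 was the 1 member among 29 XTH genes, of which 6 rose and 6 fell in naive ref6-1 and 12 rose and 3 fell in primed ref6-1. Of 41 fasciclin-like and arabinogalactan genes, 5 were members, and 16 rose and 0 fell in primed ref6-1, with 11 higher and 0 lower in primed pif7-1. Hsp70-15 was the 1 member among 10 listed heat shock genes, of which 5 rose and 0 fell in naive and in primed ref6-1. NPF6.3 and SULTR2;1 were the members among 7 nitrate, phosphate and sulfate carriers, of which 4 fell in naive ref6-1, and in primed ref6-1 1 rose and 1 fell. CYP79B3 and CYP83B1 were the members among 12 glucosinolate genes, of which 1 fell in naive ref6-1 and 0 were called in primed ref6-1. The 4 jasmonate members were among 21 genes, of which 1 rose and 2 fell in primed ref6-1.

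Markers of seedling cell types were followed because several members are known from single tissues. In WT the summed level of 8 root hair markers that are not members was 15.3 to 20.8 TPM in naive white light, 1.51 to 1.98 TPM in naive shade, 5.44 to 8.53 TPM in primed white light and 13.2 to 16.5 TPM in primed shade. In ref6-1 it was 16.8 to 38.1, 1.18 to 6.65, 1.71 to 3.39 and 10.5 to 12.7 TPM in that order, and in pif7-1 4.09 to 6.55, 1.97 to 2.19, 5.63 to 6.50 and 1.5 to 5.43 TPM. In WT and ref6-1 the root hair sums were lower in naive shade and higher in primed shade than in white light, and in pif7-1 they were lower in shade with either history, each without overlap. Of 8 tested root hair genes, PRP3 among them, 8 fell in naive ref6-1, 3 rose in primed ref6-1, and 0 were called in either pif7-1 contrast. The 8 endodermis and Casparian strip markers summed in WT to 64.9 to 65.2, 29.2 to 38.3, 31.98 to 39.1 and 48.3 to 64.9 TPM in the same order, and in ref6-1 to 75.3 to 90.9, 28.9 to 34.98, 20.1 to 25.4 and 41.2 to 43.6 TPM. In pif7-1 the endodermis sums were 34.1 to 49.7, 21.04 to 21.6, 35.5 to 45.4 and 17.97 to 40.7 TPM. Of these 8, 6 fell and 1 rose in naive ref6-1, and 2 rose in primed ref6-1. The 3 xylem markers that are not members were at 9.25 to 10.11 TPM in naive white light and 3.67 to 4.35 TPM in naive shade in WT, and the 3 shoot epidermis ones at 127 to 148 and 61.5 to 73.3 TPM. In primed white light and shade the xylem sums were 5.11 to 5.42 and 12.3 to 12.8 TPM in WT, 5.20 to 6.35 and 8.06 to 9.22 TPM in ref6-1, and 8.93 to 9.08 and 7.41 to 7.66 TPM in pif7-1. The epidermis sums there were 100.5 to 109.9 and 141 to 142 TPM in WT, 76.7 to 94.6 and 120.3 to 125 TPM in ref6-1, and 146 to 151 and 108 to 119 TPM in pif7-1. Both lists stood higher in primed shade in WT and ref6-1 and lower in pif7-1. Of 5 xylem markers, XCP1 and XCP2 among them, 4 fell in naive ref6-1 and 2 rose in primed ref6-1. Of 5 shoot epidermis markers, FDH and PDF1 among them, 4 fell in naive ref6-1, 2 fell in naive pif7-1 and 3 rose in primed ref6-1. The 3 phloem markers other than SUC2 summed to 35.6 to 38.9 and 24.6 to 26.3 TPM in naive white light and shade in WT, 28.3 to 32.02 and 29.2 to 30.06 TPM in primed WT, and 16.6 to 18.4 and 16.7 to 17.95 TPM in primed ref6-1. Their primed libraries overlapped in WT and ref6-1, unlike those of the lists above. In pif7-1 the phloem sums were lower in shade with either history, without overlap. They were 38.6 to 39.1 and 24.2 to 29.01 TPM in naive white light and shade there, and 34.1 to 37.8 and 30.2 to 33.2 TPM in primed. The 4 guard cell markers summed to 74.98 to 121 TPM across all libraries and the 5 photosynthetic ones to 24023 to 40883 TPM. Guard cell sums were lower in naive WT shade, 74.98 to 96.8 against 99.4 to 121 TPM, without overlap. They were also lower in pif7-1 shade with either history, and overlapped in primed WT and in ref6-1. The photosynthetic sums were lower in shade without overlap in WT and ref6-1 with either history. Primed WT had 36806 to 40288 TPM in white light and 28596 to 30665 TPM in shade. Naive pif7-1 was higher in shade, 38106 to 40883 against 30263 to 30339 TPM, and primed pif7-1 overlapped. Seed storage transcripts summed to 111 to 250.1 TPM in primed white light ref6-1 and 35.2 to 113 TPM in primed shade ref6-1, and to 20.2 to 108 TPM in naive white light pif7-1. The part of these tissue markers in the members' values was not tested.

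**Figure D5:**
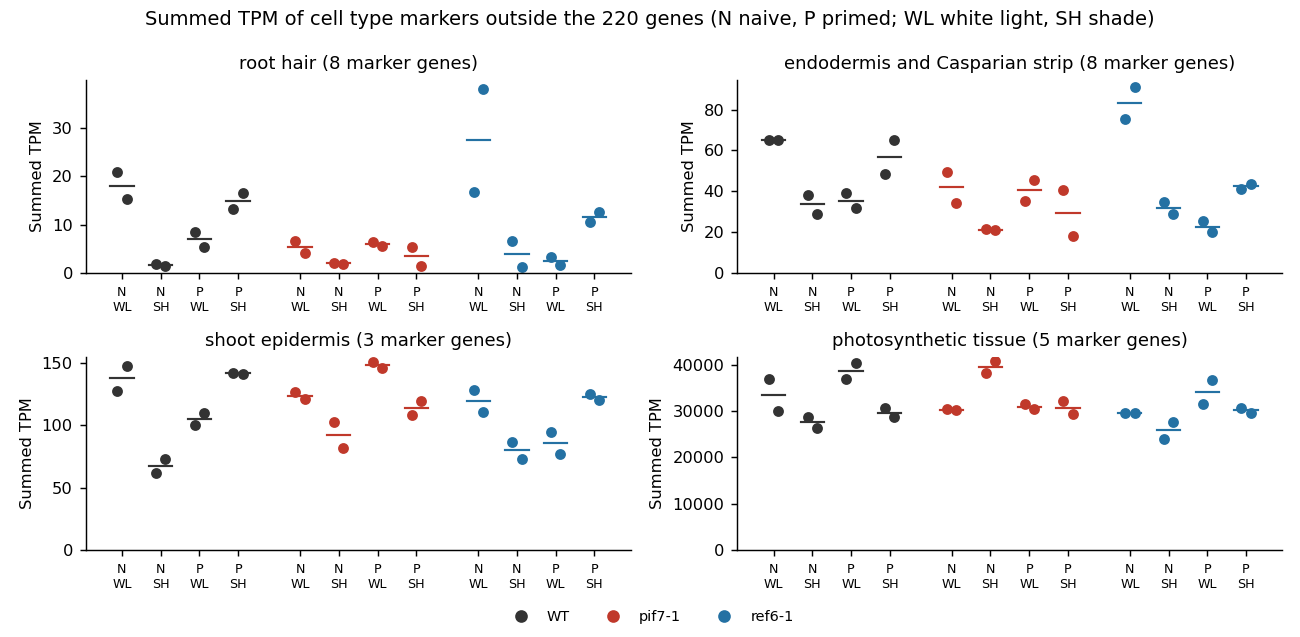
Summed TPM of the marker genes that are not members, per library, for root hair, endodermis, shoot epidermis and photosynthetic tissue, on linear axes from 0. In WT the root hair sum is 15.3 and 20.8 in naive white light, 1.51 and 1.98 in naive shade and 13.2 to 16.5 in primed shade.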

How the data were processed

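Gene expression was measured by Illumina RNA sequencing of whole seedlings in 24 libraries, 2 for each of 12 groups. The authors deposited 1 table of TPM values for 33026 genes, whose columns each sum to the same total, so depth is unknown and no counting error could be given. Reads were trimmed, aligned and counted with cutadapt, STAR and HTSeq on TAIR10, with FastQC and DESeq2 also named, per the submitters' processing notes, without versions.

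Groups were taken from the labels. limma 3.58.1 (R 4.3.3) was run on log2(TPM + 1), with a trend on mean expression and 12 group means sharing 1 estimate of the spread (12 residual and 3.69 prior degrees of freedom). Genes needed at least 1 TPM in at least 2 libraries, which left 21473. Fold changes of lowly expressed genes are damped by the added 1 TPM. The script was tested on simulated data. Tables and plots used Python 3.11.15, pandas 2.3.3, numpy 2.4.6 and matplotlib 3.10.9.

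The members and gene lists were chosen with earlier results of these data known, and the 16 role groups and the comparison of ref6-1 with pif7-1 were added after the members' values had been seen. Genes were named where they had the 10 largest differences of WT responses or the 10 highest mean levels, belonged to a list or to a product class with at least 3 members (at most 4 of each), or were among the 5 largest called changes in a direction of a mutant test. The 5 genes on each side of the rule's limit and the check genes PIF7, REF6, PIL1 and ATHB2 were also named. Other named members were chosen after their values were seen, for their known role. Alternatives tried were other low-value filters, pseudocounts, quantile normalization, a replicate block, fits on the compared groups only and fits without 1 library. After the data had been seen, nuclear genes only, genes that overlap no other gene and fits without the 8 naive mutant libraries were added. Symbols, gene positions and promoter sequences came from RefSeq's TAIR10.1 annotation, which held all 220 members.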

Additional observations from a re-analysis of the deposited data

Results flagged for a closer look

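The shade responses of some members differed between the naive and primed libraries of a mutant, and between mutants, by tests of the difference itself. The naive and primed libraries of a mutant also differ in their run of records, and those of ref6-1 in ATXR7, at 0 to 0.02 TPM in the naive and 7.2 to 8.6 TPM in the primed ones, so light history and these differences cannot be told apart. In pif7-1 the primed and naive responses differed for 15 members, 12 with the higher response in primed and 3 with the lower, 5.45% and 1.36%. Over all genes 1.48% were higher and 0.801% lower there. In ref6-1 they differed for 171 members, 77.7%, all with the higher response in primed seedlings, against 14.4% higher and 8.43% lower of all genes. Between the mutants the primed response differed for 99 members, 45%, all higher in ref6-1, and the naive response for 8, 3.64%, all lower in ref6-1. Over all genes the primed response was higher in ref6-1 for 9.27% and lower for 1.05%, and the naive response for 1.92% and 0.536%. With 2 libraries a group, no single library could be tested as an outlier.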

How the results depend on the processing

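Of 110 counts recomputed under other settings than leaving out a library, 95 stayed within 1.5-fold and 15 did not, and the cause was not tested for any of them. Among genes that overlap no other gene, where fewer members are tested, 39 members were lower in naive pif7-1, 0 were higher in primed pif7-1 and 6 had a higher primed than naive response in pif7-1. With the compared groups fitted alone, which leaves fewer samples, 2 had that higher pif7-1 response, 2 were lower in primed pif7-1 and 14 were higher in ref6-1 than in pif7-1 in primed shade. Without the 8 naive mutant libraries 22 were lower in primed pif7-1. The 8 members with a lower naive response in ref6-1 than in pif7-1 became 5 without the filter, 2 and 18 with pseudocounts of 0.1 and 5, and 15 with quantile normalization. The rule itself found 135 members with a pseudocount of 5, 359 with no minimum level and 130 with differences of at least 1.

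Leaving out 1 library at a time gave 24 to 65 members lower in naive pif7-1, 84 to 142 lower in naive ref6-1, 52 to 92 higher in primed ref6-1, 0 to 3 higher and 2 to 26 lower in primed pif7-1, and 3 to 29 and 151 to 174 with a higher primed than naive response in pif7-1 and ref6-1. Between the mutants the ranges were 53 to 125 for the primed response, 0 to 14 for the naive response, 18 to 45 lower in primed white light and 21 to 80 higher in primed shade. The rule found 209 to 235 members.

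The replicate numbers share a label only. For each group, the difference of replicate 2 minus replicate 1 was taken for every gene. Over 66 pairs of groups the correlation of these differences ran from -0.117 to 0.132, with 6 over 0.1. A replicate block gave 71 members lower in naive pif7-1, 1 higher and 16 lower in primed pif7-1, 149 lower in naive ref6-1, 114 higher in primed ref6-1, and 13 and 169 with the higher response in primed pif7-1 and ref6-1. Between the mutants it gave 108 for the primed response, 13 for the naive response, 59 in white light and 77 in shade.

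With quantile normalization the median of all genes moved from -0.12 to -0.01 in primed pif7-1 and from 0.20 to 0.00 for the primed difference between the mutants, where the count went from 99 to 70. The 2 libraries a group, unknown depth, 1 allele a mutant and the separate record run of the naive mutant libraries limit every count.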
